A study of Homo sapiens with 8 samples.

Results

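The genes described here are 10 members of the hypoxia-inducible factor (HIF) pathway, read in cells labelled as a human intestinal cancer line, with and without the lectin Siglec-XII. They comprise 3 HIF subunits (HIF1A, EPAS1, ARNT), 3 regulators of HIF stability (VHL, EGLN1, EGLN3) and 4 targets outside glycolysis (CA9, VEGFA, BNIP3, NDRG1). They were chosen by symbol from the 63816 gene entries of the expression table, each symbol stood on 1 entry, and 9 of the 10 were expressed highly enough to be tested. The 8 RNA-seq samples are labelled Caco-2, an established line from a human colorectal adenocarcinoma that the study chose because it lacks Siglec-XII. In the empty vector group, 4 samples had been stably transfected with pcDNA3.1 alone, and in the Siglec-XII group 4 samples had been transfected with pcDNA3.1 carrying full-length SIGLEC12. Cells of both groups were selected with G418, and no other drug and no oxygen treatment is described for either group. The comparison asks how expression of Siglec-XII changes the transcriptome of these cells. The cells are described as stable clones, the number of cultures given is smaller than the number of samples, and the methods mention technical replicate libraries, so errors and p-values below measure only the spread between libraries, which may be technical. Since each group came from its own transfection, Siglec-XII and any other difference between the 2 cell populations cannot be told apart.

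HIF is a transcription factor made of an oxygen-regulated alpha subunit and a constant beta subunit. In the presence of oxygen, prolyl hydroxylases of the EGLN family modify the alpha subunit, the VHL ubiquitin ligase recognizes the modified protein, and the proteasome degrades it. When oxygen is low the alpha subunit persists, pairs with ARNT, and binds short DNA elements near genes for angiogenesis, pH control, mitophagy and metabolism. This control acts mainly on protein stability, so the mRNA levels below do not measure HIF protein or HIF activity. In the intestine, HIF-2 alpha is known for its part in iron absorption.

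The transfected gene followed the labels, with SIGLEC12 at 0.11 ± 0.05 (SD, n = 4) in log2(TPM + 1) in the empty vector libraries and 10.70 ± 0.06 (SD, n = 4) in the Siglec-XII libraries (exact permutation test, two-sided, p = 0.0286, which is the lowest value possible with 4 against 4). TPM is transcripts per 1000000 transcripts, a level corrected for transcript length, and log2(TPM + 1) is the scale of every level and difference below unless TPM is named. Between 15513 and 15934 entries reached 1 TPM per library, and since the table holds no counts, the reads behind each value are unknown. Of 16 intestinal epithelial markers, 4 were tested (CDX1, CDX2, EPCAM, CDH1), 10 stayed under 1 TPM in every library, and KRT20, FABP1 and SI were listed at 0 in all 8. Of 18 trophoblast markers 14 were tested, and 4 stayed under 1 TPM in every library. The highest were GATA3 (331 to 479 TPM), HSD3B1 (316 to 370 TPM) and PAGE4 (233 to 347 TPM). KRT7 (200 to 282 TPM), TFAP2C (152 to 173 TPM) and GATA2 (121 to 152 TPM) followed. TP63 and TFAP2A reached 39.5 and 36.7 TPM, CYP19A1 7.29 TPM, and HLA-G, ERVFRD-1, PSG1, ERVW-1 and CGA at most 3.04 TPM. All 18 together summed to 1582 to 1716 TPM with the empty vector and 1618 to 1638 TPM with Siglec-XII. The summed intestinal markers were at 975 to 1026 TPM with the empty vector and 1056 to 1116 TPM with Siglec-XII. Most of the latter sum came from EPCAM (527 to 585 TPM) and CDH1 (265 to 343 TPM), which epithelia of many tissues express, followed by CDX1 (128 to 165 TPM) and CDX2 (34.0 to 48.8 TPM), and the highest value among the other 12 markers was 1.35 TPM. Summed immune markers stayed at 0.686 to 2.23 TPM, endothelial markers at 5.32 to 11.6 TPM, and fibroblast markers at 70.8 to 87.0 TPM with the empty vector and 83.3 to 89.2 TPM with Siglec-XII. Across these lists 0 genes were called (limma). At an unadjusted p of 0.05 or less stood 3 of 4 tested intestinal, 2 of 14 trophoblast and 1 of 5 fibroblast markers, all higher with Siglec-XII. The share over all tested entries was 16.5%. For most of the listed intestinal markers the levels went against the intestinal label, and several trophoblast markers were high in all 8 libraries. The identity of the cells and the part of these levels in the results were not tested.

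The members ran from abundant transcripts to one at the edge of detection. EPAS1 and HIF1A lay at 182 to 212 and 126 to 152 TPM, whereas CA9 never reached 1 TPM. EPAS1 exceeded HIF1A in 8 of 8 libraries, by 0.47 ± 0.11 (SD, n = 8), and HIF1A exceeded BNIP3, the next member, by 2.0 ± 0.13 (SD, n = 8), each with ranges that did not overlap. BNIP3, NDRG1, VHL, VEGFA, EGLN1 and ARNT followed between 3.95 and 5.35, and each overlapped its neighbour in that order. ARNT exceeded EGLN3 in 8 of 8 libraries by 0.65 ± 0.24 (SD, n = 8), and EGLN3 exceeded CA9 by 3.25 ± 0.37 (SD, n = 8), again without overlap. The order of NDRG1 and VHL was opposite in the groups, with NDRG1 below VHL in 4 of 4 empty vector libraries and above it in 4 of 4 Siglec-XII libraries. VEGFA exceeded EGLN1 in 4 of 4 empty vector and 2 of 4 Siglec-XII libraries, and BNIP3 exceeded NDRG1 in 4 of 4 and 3 of 4. Between libraries of a group, HIF1A, EPAS1, ARNT and VHL varied in TPM with coefficients of variation of 2.66% to 8.51%, and EGLN3 varied by 27.5% in the empty vector group. The entries of HIF1A and EPAS1 are named for transcripts of 559 and 558 nucleotides with no defined coding sequence, and that of VEGFA for a retained-intron transcript of 1683 nucleotides. How transcripts were combined into an entry is not given in the sources used here, so the levels of these 3 genes against the others carry that limit.

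**Figure D1:**
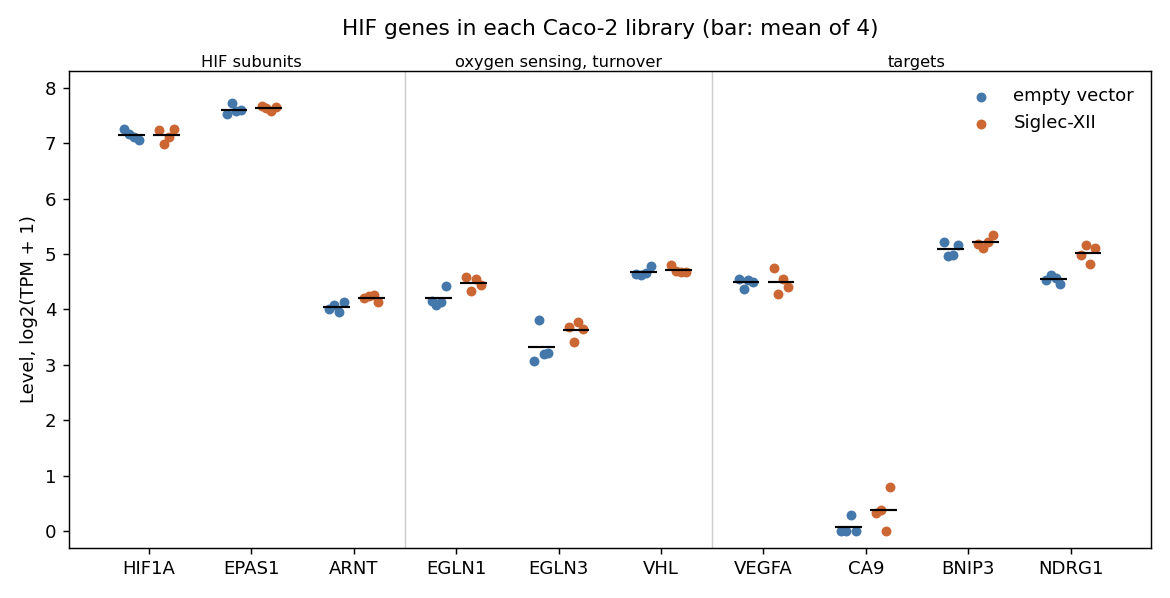
Level in log2(TPM + 1) of each of the 10 genes (x axis) in the 4 empty vector and 4 Siglec-XII libraries, with a bar at each group's mean. The groups overlap for every gene except NDRG1, whose 4 Siglec-XII libraries (4.83 to 5.16) sit above its 4 empty vector libraries (4.46 to 4.62), and CA9 stays under 1.

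The alpha subunits did not differ between the groups beyond the spread of the libraries. HIF1A (ENSG00000100644, hg19 chr14:62162231-62214977, plus strand), the widely expressed oxygen-regulated subunit, was at 7.25, 7.17, 7.12 and 7.06 in empty vector libraries 1 to 4 and at 7.24, 6.99, 7.11 and 7.25 in Siglec-XII libraries 1 to 4. The Siglec-XII libraries held both the highest and the lowest value and so enclosed all 4 empty vector libraries. The group means were 7.15 ± 0.08 and 7.15 ± 0.12 (SD, n = 4), a difference of -0.00 with a 95% interval of -0.16 to 0.15 (limma, Benjamini-Hochberg adjusted p = 0.988). In bulk RNA such a level cannot separate the number of cells expressing a gene from the amount of its RNA per cell. HIF1A shares 148 exonic bases with the lncRNA ENSG00000258964 on the same strand, which reached 1.87.

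EPAS1 (ENSG00000116016, hg19 chr2:46520806-46613836, plus strand), which encodes HIF-2 alpha, was at 7.52, 7.73, 7.58 and 7.60 in the empty vector libraries and at 7.68, 7.64, 7.59 and 7.65 in the Siglec-XII libraries. Every Siglec-XII library lay within the empty vector range. The difference was 0.03 (95% interval -0.08 to 0.15, limma adjusted p = 0.809), so the interval excluded a change of the size seen for NDRG1. The balance of the 2 alpha subunits was also close, with EPAS1 making up 57.9% ± 2.29 (SD, n = 4) of their summed TPM in empty vector libraries and 58.5% ± 1.86 (SD, n = 4) in Siglec-XII libraries (exact permutation p = 0.686, two-sided).

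ARNT (ENSG00000143437, hg19 chr1:150782189-150849184, minus strand), the beta subunit shared by both alpha subunits, was at 4.02, 4.07, 3.95 and 4.14 in the empty vector libraries and at 4.20, 4.24, 4.26 and 4.13 in the Siglec-XII libraries. In ARNT 3 of the 4 Siglec-XII libraries exceeded all empty vector libraries, and the fourth lay just under the highest of them. The difference of 0.16 (95% interval 0.02 to 0.31) had an unadjusted p of 0.0341 and did not pass adjustment over all entries (limma adjusted p = 0.265).

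Among the member regulators, the prolyl hydroxylase genes EGLN1 and EGLN3 had larger differences than VHL, and none of these genes was called. EGLN2, a gene of the EGLN family that is not a member, differed by 0.09 (limma adjusted p = 0.672). EGLN1 (ENSG00000135766, hg19 chr1:231499497-231558033, minus strand) encodes PHD2, the main prolyl hydroxylase acting on HIF alpha, and is itself a HIF target. It was at 4.16, 4.08, 4.14 and 4.43 in the empty vector libraries and at 4.58, 4.33, 4.54 and 4.44 in the Siglec-XII libraries. Empty vector library 4 stood with the Siglec-XII libraries, and the other empty vector libraries stood below all of them. The difference of 0.27 (95% interval 0.07 to 0.48) had an unadjusted p of 0.0151 and an adjusted p of 0.201 (limma). A gene annotated as protein-coding on the same strand, ENSG00000287856, shares 3004 exonic bases with EGLN1. It has no entry in the expression table, so its level is unknown.

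EGLN3 (ENSG00000129521, hg19 chr14:34393433-34931980, minus strand), encoding the strongly hypoxia-inducible hydroxylase PHD3, was at 3.07, 3.80, 3.20 and 3.22 in the empty vector libraries and at 3.68, 3.41, 3.77 and 3.64 in the Siglec-XII libraries. Empty vector library 2 was the highest of all 8, and the other empty vector libraries lay below every Siglec-XII library. The difference was 0.30 (95% interval -0.05 to 0.66, limma adjusted p = 0.368) with that library and 0.46 (adjusted p = 0.0753) without it. With any other library left out it ran from 0.22 to 0.37 (limma adjusted p from 0.350 to 0.589). VHL (ENSG00000134086, hg19 chr3:10183462-10195351, plus strand), the substrate receptor of the ubiquitin ligase, was at 4.64, 4.63, 4.66 and 4.78 in the empty vector libraries and at 4.80, 4.70, 4.67 and 4.67 in the Siglec-XII libraries. Its groups overlapped over most of their range and differed by 0.04 (95% interval -0.10 to 0.17, limma adjusted p = 0.811).

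Of the 4 targets, NDRG1 rose with Siglec-XII, VEGFA and BNIP3 did not pass the test, and CA9 was too low to test. NDRG1 (ENSG00000104419, hg19 chr8:134249418-134314265, minus strand) encodes a cytoplasmic stress-response protein that is induced by hypoxia and differentiation and is known as a suppressor of metastasis in several cancers. It was at 4.53, 4.62, 4.57 and 4.46 in the empty vector libraries and at 4.98, 5.16, 4.83 and 5.10 in the Siglec-XII libraries. The lowest Siglec-XII library stood above the highest empty vector library. The mean went from 4.54 ± 0.07 to 5.02 ± 0.15 (SD, n = 4), a difference of 0.47 (SE 0.08, 95% interval 0.29 to 0.65) or 1.39-fold, and the adjusted p was 0.0371 (limma). In TPM the group means were 22.4 and 31.5. The lncRNA ENSG00000289316 shares 753 exonic bases with NDRG1 on the same strand and has no entry in the expression table, so its level is unknown.

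The NDRG1 call stood close to the threshold. Its difference stayed between 0.40 and 0.54 in 16 alternative analyses, but the adjusted p was at or over 0.05 in 11 of them, ranging from 0.0177 to 0.118. It was 0.0970 after quantile normalization and 0.118 without the filter on low entries. Leaving out any 1 library except empty vector library 2 or Siglec-XII library 3 also lost the call, with adjusted p-values of 0.102 to 0.110.

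**Figure D2:**
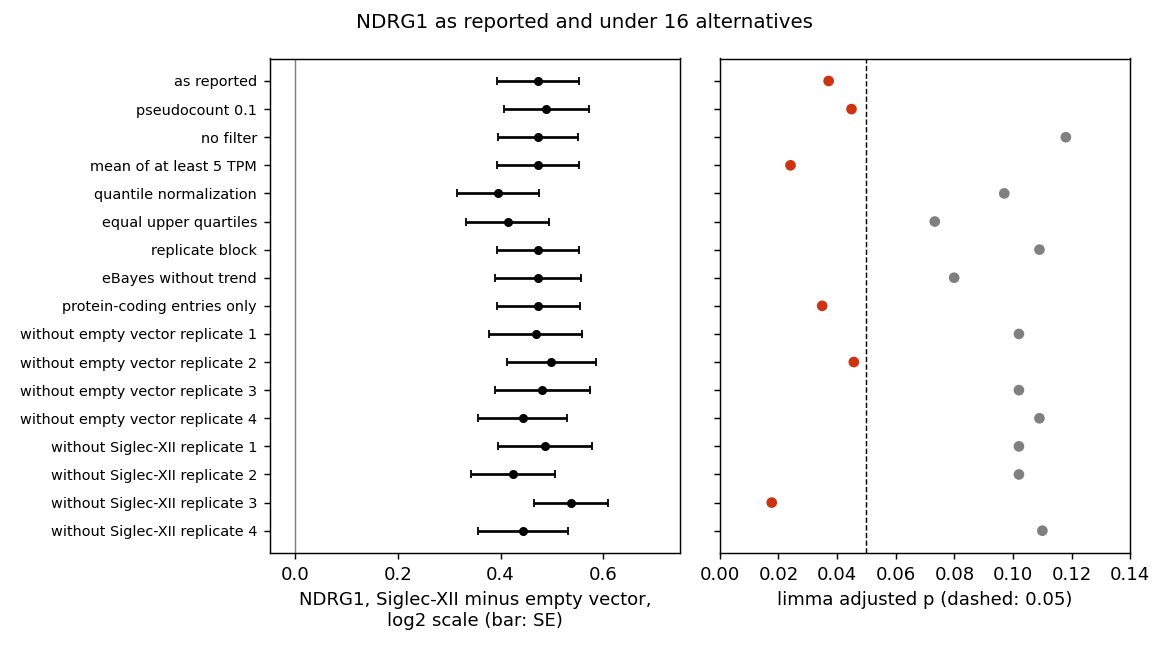
NDRG1 as reported and under 16 alternative analyses (rows), with the Siglec-XII minus empty vector difference on the log2 scale with its SE (left) and the limma adjusted p with the 0.05 threshold dashed (right). The difference runs from 0.40 to 0.54, whereas the adjusted p lies under the threshold as reported and in 5 alternatives (red) and over it in 11 (grey).

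VEGFA (ENSG00000112715, hg19 chr6:43737921-43754224, plus strand), the principal angiogenic growth factor, was at 4.56, 4.37, 4.54 and 4.50 in the empty vector libraries and at 4.75, 4.28, 4.55 and 4.41 in the Siglec-XII libraries. The Siglec-XII libraries held both the highest and the lowest value. The difference was 0.01 (95% interval -0.22 to 0.23, limma adjusted p = 0.978). The lncRNA ENSG00000272114 shares 188 exonic bases with VEGFA on the opposite strand and reached 4.05, and the strand setting of the quantification is not given in the sources used here.

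BNIP3 (ENSG00000176171, hg19 chr10:133781188-133795471, minus strand), a receptor for mitophagy on the outer mitochondrial membrane, was at 5.22, 4.97, 4.98 and 5.16 in the empty vector libraries and at 5.18, 5.11, 5.22 and 5.35 in the Siglec-XII libraries. Its groups overlapped, with Siglec-XII library 4 above all others, and differed by 0.13 (95% interval -0.04 to 0.31, limma adjusted p = 0.423).

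CA9 (ENSG00000107159, hg19 chr9:35673925-35681156, plus strand) encodes carbonic anhydrase IX, a cell-surface enzyme of pH control that is among the most oxygen-sensitive HIF targets. It was listed at 0 in empty vector libraries 1, 2 and 4 and in Siglec-XII library 3. It stood at 0.29 in empty vector library 3 and at 0.32, 0.37 and 0.79 in Siglec-XII libraries 1, 2 and 4, with 0.728 TPM as the highest level. With the filter on low entries left out, its adjusted p was 0.654 (limma). An exon of ARHGEF39 on the opposite strand shares 571 bases with CA9 and that gene reached 4.51, so traces of CA9 at this level are uncertain.

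Across the members, 1 of 9 tested was called at an adjusted p under 0.05 (NDRG1), where 0.648% of all 15590 tested entries were called in either direction and 0.34% were called higher. At an unadjusted p of 0.05 or less stood 3 of 9 (NDRG1, EGLN1, ARNT), against 16.5% of all entries, and the groups did not overlap in 1 of 9, against 10.8% of all entries. In sign, 8 of the 9 were higher with Siglec-XII and 1 was lower, but 68.1% of all entries were also higher, and the median difference of all entries was 0.07. The median of the 9 was 0.13, and 5 of them lay above the median of all. After quantile normalization or scaling to equal upper quartiles, which brought the median of all entries to 0.01, EPAS1, VHL and VEGFA lay just below 0 together with HIF1A, and NDRG1, EGLN3, EGLN1, ARNT and BNIP3 stayed above it. The upper quartile of the libraries was 38.3 to 41.0 TPM with the empty vector and 40.6 to 42.5 TPM with Siglec-XII, and mitochondrially encoded genes took 7.92% to 11.2% and 6.67% to 9.97% of the TPM. Their part in the small positive differences was not tested.

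**Figure D3:**
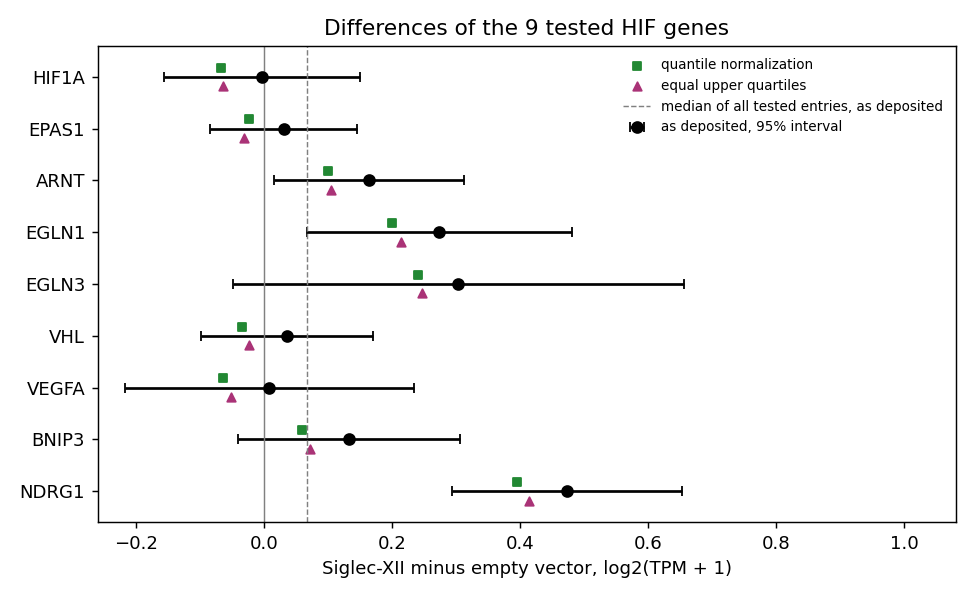
Siglec-XII minus empty vector difference in log2(TPM + 1) for the 9 tested genes, as deposited with 95% intervals (black) and after quantile normalization or scaling to equal upper quartiles. NDRG1 (0.47) lies farthest from 0, the intervals of NDRG1, EGLN1 and ARNT lie above 0 and the other 6 span it, and the dashed line marks the median of all tested entries (0.07).

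The wider pathway was described with lists of related genes, and called means an adjusted p under 0.05 over all entries. The lists include the members themselves, and several genes stand in more than 1 list, so the counts are not independent. Over all tested entries 68.1% were higher, the median difference was 0.07, and 16.5% were at an unadjusted p of 0.05 or less (limma). The share of all entries that were higher was 52.9% after quantile normalization and 53.5% with equal upper quartiles. Of 7 genes for HIF subunits and coactivators 6 were tested, 5 were higher and 1 lower, and 0 were called (limma), with 2 at an unadjusted p of 0.05 or less and a median difference of 0.11. HIF3A, another alpha subunit gene, had the highest difference (0.37, adjusted p = 0.358) and HIF1A the lowest. After either scaling this list was split into 3 higher and 3 lower. The 11 genes of oxygen sensing and alpha subunit turnover were all tested, 10 were higher and 1 lower with a median of 0.09, and 0 were called (limma), with 2 at an unadjusted p of 0.05 or less. EGLN3 had the highest and RBX1, the RING subunit of the VHL ligase, the lowest difference in that list (-0.09, adjusted p = 0.663), and after either scaling 7 were higher and 4 lower.

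The lists of targets were chosen with earlier results of these data known, so their direction is a description. Of 37 targets outside glycolysis, 31 were tested, 29 were higher and 2 lower (68.1% of all entries were higher), and the median difference was 0.20 (0.07 over all entries). At an unadjusted p of 0.05 or less were 14 (45.2%, against 16.5% of all entries), 13 of them higher. NDRG1 was the 1 call among them (limma). The count of calls was 3 without empty vector library 2, 1 without Siglec-XII library 3, and 0 with any other library left out. It was also 0 without the filter, with the replicate number as a block or without the trend in limma, and 1 in the remaining alternatives. BHLHE40, a transcriptional repressor, had the highest difference at 0.47 (adjusted p = 0.254), with empty vector library 2 at 3.75 and the other empty vector libraries at 2.90 to 3.13, and Siglec-XII libraries at 3.41 to 3.85. DDIT4, an inhibitor of mTORC1 signalling, was lower in the Siglec-XII libraries, at 4.52 ± 0.04 against 4.79 ± 0.09 (SD, n = 4), a difference of -0.26 (adjusted p = 0.103) with groups that did not overlap. DDIT4 was at -0.34 (adjusted p = 0.0265) after quantile normalization and at -0.32 (adjusted p = 0.0314) with equal upper quartiles. Under both scalings NDRG1 lost its call and the 1 call in the list was DDIT4, a lower gene. The list stood at 25 higher and 6 lower with a median of 0.14 after quantile normalization (52.9% of all entries were higher). With equal upper quartiles it stood at 26 higher and 5 lower with a median of 0.15 (53.5% of all entries were higher).

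The 19 glycolytic HIF targets, read for comparison, were also mostly higher. All were tested, 18 were higher and 1 lower (68.1% of all entries were higher), and the median difference was 0.16 (0.07 over all entries). Unadjusted p-values up to 0.05 were found for 11 (57.9%, against 16.5% of all entries). After quantile normalization 17 were higher and 2 lower (52.9% of all entries were higher), with a median of 0.13 and 8 at that limit. With equal upper quartiles 17 were higher and 2 lower (53.5% of all entries were higher), with a median of 0.10, 5 at that limit and 0 called (limma). The call among them was SLC2A3, the glucose transporter GLUT3, which went from 10.48 ± 0.04 to 10.73 ± 0.04 (SD, n = 4), higher by 0.25 (limma adjusted p = 0.0371), and this call was lost in 11 of 16 alternatives. PFKFB3, a regulator of glycolytic flux, had the highest difference (0.41, adjusted p = 0.150) and PDK1, which restrains pyruvate entry into mitochondria, the lowest (-0.08, adjusted p = 0.678). That targets in and outside glycolysis differed from each other was not tested.

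**Figure D4:**
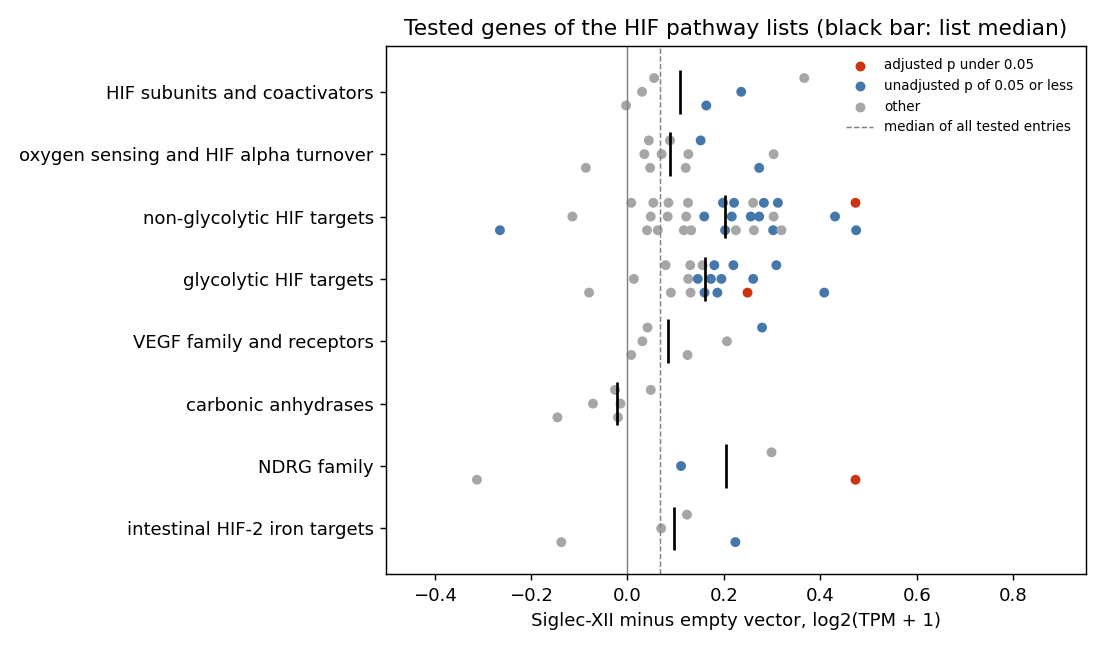
Siglec-XII minus empty vector difference in log2(TPM + 1) of each tested gene (point) in 8 lists of HIF pathway genes and gene families, with a bar at each list's median and a dashed line at the median of all tested entries (0.07). The medians of the non-glycolytic (0.20) and glycolytic (0.16) targets lie to the right of the dashed line, and NDRG1 and SLC2A3 are the called genes (red).

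In the families of the targets, NDRG1 was the 1 gene called. For every list here the values of all entries apply, with 68.1% higher, a median of 0.07 and 16.5% at the unadjusted limit of 0.05. Of 10 genes for VEGF ligands and receptors, 6 were tested and all 6 were higher, by a median of 0.08. Of these, 3 lay above the median of all entries. After quantile normalization 3 of 6 were higher (52.9% of all entries were higher). In this list 0 were called (limma), with NRP2, a co-receptor, as the 1 gene (16.7%) at an unadjusted p of 0.05 or less (0.28, adjusted p = 0.123). Of 15 carbonic anhydrases 6 were tested, 1 was higher and 5 lower by a median of -0.02, and 0 were called (limma), with 0 at an unadjusted p of 0.05 or less. CA12, a surface enzyme like CA9, differed by 0.05 (adjusted p = 0.885) and CA13 by -0.15 (adjusted p = 0.530). In the NDRG family, NDRG1 was called, whereas NDRG2 was at -0.31 (adjusted p = 0.417), NDRG3 at 0.11 (adjusted p = 0.303) and NDRG4 at 0.30 (adjusted p = 0.378). The list of iron uptake and export genes, grouped here under intestinal HIF-2, held SLC11A2 (0.12, limma adjusted p = 0.372), CYBRD1 (0.07, adjusted p = 0.665), SLC40A1 (-0.14, adjusted p = 0.641) and TFRC (0.22, adjusted p = 0.105). All were tested and 0 were called (limma), with TFRC at an unadjusted p of 0.00200.

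The entries whose profiles over the 8 libraries were nearest to each of 3 members were taken by the root mean square difference of log2(TPM + 1), each profile centred on its own mean. For EPAS1 these were BTBD1 (0.022), EXOSC10 (0.028) and ZNF507 (0.028), where the median of all entries was 0.140. For VEGFA they were ZNF277 (0.051), PCNP (0.054) and CCDC28B (0.056), against a median of 0.200, and for HIF1A the nearest was SOD2 (0.042), followed by RABGGTA (0.046), which stood on 2 entries with identical values, against 0.169. A flat profile is near other flat profiles by this measure.

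Promoter windows were read for the core of the HIF element, since EGLN1, EGLN3, CA9 and BNIP3 are known HIF targets among the members with a window. RefSeq windows of 300 bases, from 250 before to 50 after the annotated start, were matched by symbol for 7 of the 10 members (GRCh38.p14). The letters ACGTG and GCGTG were searched on both strands, overlapping matches were counted separately, and 5 of the 7 members held at least 1. HIF1A had GCGTG 204 bases before the first of its 2 annotated starts and none at the other start, EPAS1 had GCGTG 117 bases before its start, and ARNT and EGLN3 had no match. The windows of the 3 members with ACGTG were picked for display by that match, so they are no sample of the HIF targets, and EGLN3 held none. They are shown 5′ to 3′ on the gene's strand, with matches of either strand in capitals, because EGLN1 and CA9 each hold 1 match within 20 bases of the start and BNIP3 holds a cluster of 6. EGLN1 lies at chr1:231422238-231422537 (minus strand), CA9 at chr9:35673678-35673977 (plus strand) and BNIP3 at chr10:131981874-131982173 (minus strand).
EGLN1: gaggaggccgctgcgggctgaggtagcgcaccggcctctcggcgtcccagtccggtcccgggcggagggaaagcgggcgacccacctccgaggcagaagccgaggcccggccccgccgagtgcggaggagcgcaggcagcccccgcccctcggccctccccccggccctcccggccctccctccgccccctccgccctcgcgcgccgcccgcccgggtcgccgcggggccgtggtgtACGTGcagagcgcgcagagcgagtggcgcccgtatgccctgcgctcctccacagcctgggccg
CA9: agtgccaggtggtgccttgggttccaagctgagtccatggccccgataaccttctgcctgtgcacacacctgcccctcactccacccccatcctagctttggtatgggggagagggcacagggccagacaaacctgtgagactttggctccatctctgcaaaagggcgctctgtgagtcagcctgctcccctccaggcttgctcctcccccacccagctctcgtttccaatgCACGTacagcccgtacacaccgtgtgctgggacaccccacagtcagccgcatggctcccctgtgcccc
BNIP3: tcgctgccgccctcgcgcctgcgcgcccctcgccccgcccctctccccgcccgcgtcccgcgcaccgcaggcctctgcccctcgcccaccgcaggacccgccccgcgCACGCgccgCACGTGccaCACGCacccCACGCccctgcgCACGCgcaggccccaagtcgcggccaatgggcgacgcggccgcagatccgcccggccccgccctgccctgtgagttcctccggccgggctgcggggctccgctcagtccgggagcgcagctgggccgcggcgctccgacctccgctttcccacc

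The match in EGLN1 begins 13 bases before the start on the gene's strand, and that in CA9 covers bases from 18 before the start on the opposite strand. In BNIP3 the 6 matches begin between 143 and 104 bases before the start, and 2 of them overlap in the palindrome in its second capital run. Of all 35116 windows, 48.4% held at least 1 match and 10.1% held at least 3. These letters describe the windows only. Of the 3 genes shown, EGLN1 and BNIP3 were tested and not called between the groups (limma), and CA9 was too low to test.

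**Figure D5:**
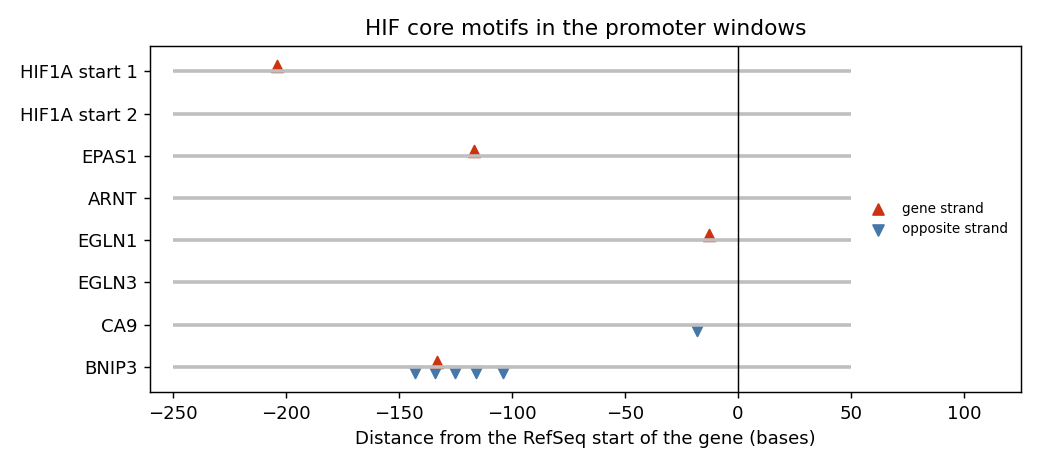
Positions of HIF core motifs on the gene's strand (upward, red) and the opposite strand (downward, blue) relative to the annotated start, in the windows of 7 members (x axis in bases, 2 starts for HIF1A). BNIP3 holds 6 matches between 143 and 104 bases before its start, and ARNT and EGLN3 hold none.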

How the data were processed

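RNA-seq libraries labelled Caco-2, with the empty vector (4) or Siglec-XII (4), were quantified by the authors with kallisto (0.45.0 in the submitters' processing notes) against hg19. They were deposited as 1 table of log2 values, log2(TPM + 1), per gene entry. Each column, returned to TPM, summed to 1000000. TPM was used as deposited, is relative to the rest of each library, and keeps no depth. The labels name a stranded total RNA kit and the methods a stranded mRNA kit.

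The 10 members and the pathway and marker lists were chosen with earlier results of these data known. The comparison used limma 3.58.1 (lmFit, eBayes with trend, under R 4.3.3) on the 15590 entries with at least 1 TPM in at least 4 samples, with Benjamini-Hochberg adjustment over all of them. The pseudocount of 1 shrinks changes of low genes. Single values were compared with two-sided exact permutation tests. The fit was tested on simulated data with independently drawn samples, so that test does not bear on whether the libraries are independent. From each list the text names every called gene and those with the highest and lowest difference, or every gene in lists of 5 or fewer. Gene positions came from the GENCODE annotation on GRCh37 and promoters from RefSeq. Figures were drawn with matplotlib 3.10.9. Alternatives were a pseudocount of 0.1, no filter, quantile normalization, a mean of at least 5 TPM, a replicate block, equal upper quartiles, no trend, protein-coding entries alone, and each library left out in turn.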

Additional observations from a re-analysis of the deposited data

Results flagged for a closer look

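CA9 in empty vector library 3 stood at 0.29 in log2(TPM + 1) and was the 1 far sample found among 20 groups of 4. The other 3 empty vector libraries were listed at 0, so any value above 0 would have stood apart by the same measure, and nothing is read from it.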

How the results depend on the processing

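NDRG1 was higher in all 16 alternatives, by 0.424 to 0.537 when 1 library was left out, and its call was lost without the filter (difference 0.47), with quantile normalization (0.395), with equal upper quartiles (0.414) and without the trend (0.47), so that the count of called members was 0 there and 0 to 1 with 1 library left out. EPAS1 (-0.0245 and -0.0311), VHL (-0.0353 and -0.0243) and VEGFA (-0.0639 and -0.0514) turned negative with quantile normalization and equal upper quartiles. With 1 library left out, HIF1A ran from -0.0382 to 0.0495, VEGFA from -0.0774 to 0.0820 and the HIF1A to EPAS1 log2 ratio difference from -0.0687 to 0.0305. The CA9 difference of 0.30 became 1.29 with a pseudocount of 0.1. All called entries numbered 101 (52.5% higher), 51 without the filter, 54 without the trend, 58 among protein-coding entries (86.2% higher), 86 with quantile normalization (32.6% higher), 82 with equal upper quartiles (29.3% higher), 49 without empty vector library 3 and 159 without empty vector library 2.

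The labels do not say whether samples with the same replicate number belong together. Their correlations of deviations ran from -0.074 to 0.059, against -0.117 to 0.069 for other pairs, and 4 of 8 matched their own number best. These values do not settle whether the replicate number pairs the samples. With the number as a block, NDRG1 kept its difference of 0.47 at an adjusted p of 0.109, 0 members were called, and 69 entries were called in all (26.1% higher). Summing entries per symbol was not run, because each member stood on 1 entry. With no read counts, low genes such as CA9 have unknown counting error.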
